A study of Mus musculus with 18 samples.

Results

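The subject is the mouse Fc gamma receptor family, the receptors by which phagocytes bind IgG, with the chain that carries their activating signal. The 5 genes, Fcgr1, Fcgr3, Fcgr4, Fcgr2b and Fcer1g, were taken by name from a table of read counts of 40481 gene IDs. All 5 were among the 16575 genes with enough reads to be tested. The libraries were made from neutrophils of digested C57BL/6 mouse lung, with live CD45+ cells gated on CD11b and Ly6G and then divided by CD101, a surface protein of mature neutrophils. Wild-type (WT) mice were compared with mice labelled CGD/CYBB KO, which lack the gp91phox subunit of the phagocyte NADPH oxidase and model chronic granulomatous disease (CGD). There were 6 groups of 3 libraries. WT and CGD naive CD101pos cells came from untreated 12-week-old male mice. WT and CGD cells of the zymosan groups, CD101pos and CD101neg, came from 13-week-old female mice given 20 µg zymosan, a yeast cell wall preparation, into the nose 24 hours earlier. There was no naive CD101neg group here. Naive and zymosan mice also differed in sex and age, and these cannot be told apart from the effect of zymosan. The knockout is present from birth in all cells of the mouse, so it is not specific to neutrophils. Nothing in the sources used here says that replicates were separate animals, so the p-values reflect spread between samples that may be technical.

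Fc gamma receptors bind the constant part of IgG on coated microbes or immune complexes. Fcgr1, Fcgr3 and Fcgr4 encode the activating receptors FcγRI, FcγRIII and FcγRIV. These have little signalling sequence of their own and pair with a dimer of the Fc receptor gamma chain, encoded by Fcer1g. The gamma chain holds an immunoreceptor tyrosine-based activation motif (ITAM), which Src family kinases phosphorylate and to which the kinase Syk then binds. Signalling through it drives phagocytosis, degranulation and, in cells with an intact NADPH oxidase, the oxidative burst. Fcgr2b encodes FcγRIIB, the inhibitory receptor of the family. Its own tail holds an immunoreceptor tyrosine-based inhibitory motif (ITIM), which recruits the phosphatase SHIP-1 and dampens the activating signal. FcγRIII and FcγRIV are the activating receptors known for resting mouse neutrophils, and FcγRI is better known from monocytes, macrophages and interferon-treated cells.

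The opposite signs of the chain and the inhibitory receptor are written in short stretches of their coding sequences, shown here from GENCODE M21 transcripts with the codons of the motif's tyrosines and its leucine or isoleucine positions in capitals. In Fcer1g the 57 bases begin at coding position 187 of 258, and in Fcgr2b the 36 bases begin at position 940 of 1020, both counted from the first base of the start codon.
Fcer1g ITAM: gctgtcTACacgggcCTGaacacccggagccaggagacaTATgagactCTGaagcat
Fcgr2b ITIM: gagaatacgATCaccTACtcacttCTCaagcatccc

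Fcgr2b (ENSMUSG00000026656, GRCm38 chr1:170958617-170976547, minus strand), Fcgr4 (ENSMUSG00000059089, chr1:171018920-171029761, plus strand), Fcgr3 (ENSMUSG00000059498, chr1:171051174-171064935, minus strand) and Fcer1g (ENSMUSG00000058715, chr1:171229572-171234365, minus strand) lie in 1 cluster on chromosome 1. Fcgr1 (ENSMUSG00000015947, chr3:96282909-96293969, minus strand) lies on chromosome 3. Each value is a count over all exons of the gene. The extracellular parts of Fcgr2b and Fcgr3 are near copies, and the longest coding run that both share without a mismatch is 129 bases long, at coding positions 278 to 406 of Fcgr2b and 263 to 391 of Fcgr3.
Fcgr2b and Fcgr3 shared run: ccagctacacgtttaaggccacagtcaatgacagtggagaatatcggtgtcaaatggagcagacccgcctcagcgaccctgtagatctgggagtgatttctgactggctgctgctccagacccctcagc
Of all stretches of 50 bases in the transcripts, 2.92% of those of Fcgr2b and 9.58% of those of Fcgr3 occur in the other gene. At 100 bases the shares are 0.753% and 2.54%, and no stretch of 50 bases was shared by any other pair of the 5 genes. Part of these 2 counts is uncertain, because the rule for reads that match both genes was not among the details in the labels. In WT naive libraries Fcgr3 had 33.7 to 40.4 times as many reads as Fcgr2b. A small share of the Fcgr3 reads could therefore be a large part of the Fcgr2b count there. The effect on the Fcgr2b levels, fold changes and ratios given below was not tested. Exons of Fcgr2b also overlap a predicted gene on the opposite strand, Gm38204, and reads of the pair cannot be told apart where counting ignores strand.

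Promoters were searched for 2 motifs on both strands, within 250 bases before the start of each gene in RefSeq (GRCm38.p6), where all 5 genes were found. The interferon-gamma activated site TTCNNNGAA, known from the Fcgr1 promoter, occurs in 7.02% of 32851 promoters, and the core GAGGAAGT of the myeloid factor PU.1 in 2.44%. The first was found only in Fcgr1 among the 5, at 109 bases before the start (chr3:96294040-96294108, minus strand), and the second only in Fcgr4, at 24 bases before the start (chr1:171018872-171018925, plus strand, motif on the other strand). The matches, in capitals, describe these windows and show no binding.
Fcgr1 promoter window: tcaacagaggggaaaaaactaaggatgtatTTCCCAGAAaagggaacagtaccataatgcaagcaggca
Fcgr4 promoter window: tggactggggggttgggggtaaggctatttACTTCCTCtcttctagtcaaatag

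Libraries held between 33.7 and 67.9 M counts. Cybb, the disrupted gene, was at 126 to 283 CPM in the WT libraries and 29.6 to 59.5 CPM in the CGD libraries, with no overlap, as labelled. CPM are read counts scaled to a common library size with TMM factors, which correct for RNA composition. All 10 neutrophil markers had reads in every library, and their summed level lay between 19690.4 and 116414 CPM. Ly6g itself was low, from 6.78 to 230 CPM. Cd101 transcript was higher in CD101pos than in CD101neg cells within each genotype (403 ± 70.3 against 166 ± 16.1 CPM in WT, 105 ± 7.96 against 61.1 ± 18.4 CPM in CGD zymosan cells), but the CGD CD101pos libraries lay below the WT CD101neg ones. In both WT zymosan groups replicate 2 stood apart from replicates 1 and 3. It had the highest neutrophil marker sum (88122 against 32478 and 54821 CPM in CD101pos cells, and 82155 against 19690.4 and 35287 CPM in CD101neg cells). Results that rest on WT zymosan cells are therefore also given without both of these libraries where a call changes, an alternative chosen after seeing the data. In sorted bulk samples such as these, more cells with a transcript and more transcript per cell cannot be told apart.

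Per length of all annotated exons the chain stood far above the receptors, and Fcgr3 and Fcgr4 above the inhibitory and the high-affinity receptor. On the RPKM scale (CPM divided by the length of all exons in kb), group means ran from 1601 to 3864 for Fcer1g, 407 to 976 for Fcgr3, 117 to 312 for Fcgr4, 3.37 to 59.2 for Fcgr2b and 1.12 to 3.75 for Fcgr1. These ranges overlapped for no pair of neighbouring genes except Fcgr2b and Fcgr1, whose ranges met at the low end of Fcgr2b. The order depends on the lengths, 0.874 kb for Fcer1g, 1.74 for Fcgr3, 1.26 for Fcgr4, 5.79 for Fcgr2b and 2.59 for Fcgr1. In CPM the mean of Fcgr2b stood above that of Fcgr4 in both CD101neg groups (201 against 147 in WT, 343 against 299 in CGD). Together the 5 genes took 0.272% to 0.287% of the counts of a WT naive library and 0.434% to 0.551% of a CGD zymosan CD101pos library. The span between the highest and lowest group mean was 17.5-fold for Fcgr2b. For the others it was 3.35-fold (Fcgr1), 2.67-fold (Fcgr4), 2.41-fold (Fcer1g) and 2.39-fold (Fcgr3).

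**Figure D1:**
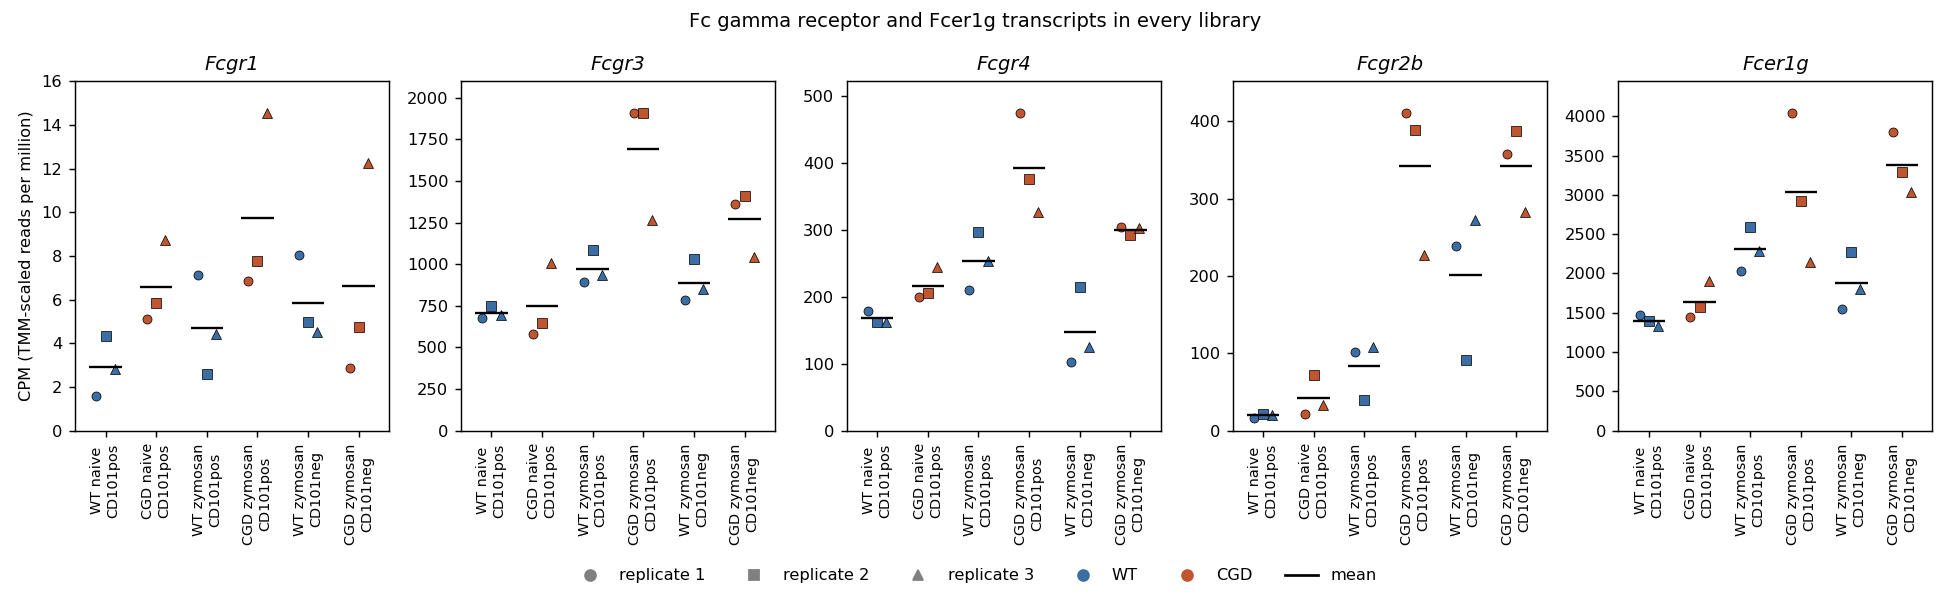
Level of each of the 5 genes in every library, in CPM on linear axes that start at 0. Points are libraries, shaped by replicate number and coloured by genotype, and black lines are means of 3. Fcgr2b ran from 16.8 CPM in a WT naive library to 411 CPM in a CGD zymosan CD101pos library, and WT zymosan replicate 2 was the lowest of its group for Fcgr2b in both subsets.

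Fcgr1, the high-affinity receptor, was the least abundant member, with 94 to 1042 reads per library. In replicates 1, 2 and 3 it stood at 1.56, 4.32 and 2.82 CPM in WT naive cells and at 5.11, 5.84 and 8.74 CPM in CGD naive cells. After zymosan, WT CD101pos cells held 7.13, 2.58 and 4.41 CPM and CGD CD101pos cells 6.83, 7.78 and 14.6 CPM. WT CD101neg cells held 8.02, 4.96 and 4.51 CPM and CGD CD101neg cells 2.85, 4.76 and 12.3 CPM. CGD replicate 3 was the highest of its group each time. Every pair of neighbours in the order of group means overlapped, from 9.72 ± 4.21 CPM (SD, n = 3) in CGD zymosan CD101pos cells to 2.90 ± 1.38 CPM in WT naive cells.

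Fcgr3, the low-affinity activating receptor shared by most myeloid cells and NK cells, was the most abundant receptor gene. It stood at 679, 748 and 695 CPM in WT naive libraries and at 582, 649 and 1006 CPM in CGD naive libraries. After zymosan, WT CD101pos libraries had 892, 1082 and 934 CPM, all above the WT naive ones. CGD CD101pos libraries had 1909, 1907 and 1265 CPM, all above the WT libraries of the same sort. In CD101neg cells WT libraries had 786, 1031 and 851 CPM and CGD libraries 1363, 1406 and 1041 CPM, which also did not overlap. The order of means ran from CGD zymosan CD101pos cells (1694 ± 371 CPM) through CGD CD101neg, WT CD101pos, WT CD101neg and CGD naive to WT naive cells (707 ± 36.3 CPM), and each neighbouring pair overlapped.

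Fcgr4, the activating receptor with a preference for IgG2 subclasses, stood at 178, 162 and 162 CPM in WT naive and at 200, 205 and 243.4 CPM in CGD naive libraries, all CGD above all WT. After zymosan it was at 210, 297 and 253 CPM in WT CD101pos and at 474, 375 and 327 CPM in CGD CD101pos libraries. The lowest group was WT CD101neg, with 103, 214 and 124 CPM, while CGD CD101neg libraries lay close together at 304, 291 and 302 CPM. In the order of means, CGD zymosan CD101pos cells (392 ± 75.2 CPM) stood above CGD CD101neg cells (299 ± 6.81 CPM) with no overlap of libraries, and CGD naive above WT naive cells likewise. The other neighbouring pairs overlapped.

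Fcer1g, the signalling chain, stood at 1469, 1399 and 1331 CPM in WT naive and at 1447, 1572 and 1901 CPM in CGD naive libraries. After zymosan it was at 2034, 2597 and 2285 CPM in WT CD101pos and at 4045, 2925 and 2139.7 CPM in CGD CD101pos libraries, which overlapped. In CD101neg cells the WT libraries held 1541, 2277 and 1806 CPM and the CGD libraries 3796, 3297 and 3037 CPM, with no overlap. The highest mean was that of CGD CD101neg cells (3377 ± 386 CPM), but every neighbouring pair in the order overlapped.

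Fcgr2b, the inhibitory receptor, varied most. It was at 16.8, 21.1 and 20.6 CPM in WT naive libraries and at 21.03, 72.2 and 33.4 CPM in CGD naive libraries, where replicate 2 stood well above the others. After zymosan, WT CD101pos libraries had 101, 39.4 and 108 CPM and CGD CD101pos libraries 411, 389 and 227 CPM. WT CD101neg libraries had 239, 91.1 and 272 CPM and CGD CD101neg libraries 358, 387 and 283 CPM. WT replicate 2 was the lowest of its group in both subsets, and for Fcgr3, Fcgr4 and Fcer1g the same library was the highest of its group in both. The CGD means of CD101neg (343 ± 53.7 CPM) and CD101pos cells (342 ± 101 CPM) headed the order, WT naive cells (19.5 ± 2.36 CPM) ended it, and every neighbouring pair overlapped.

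**Figure D2:**
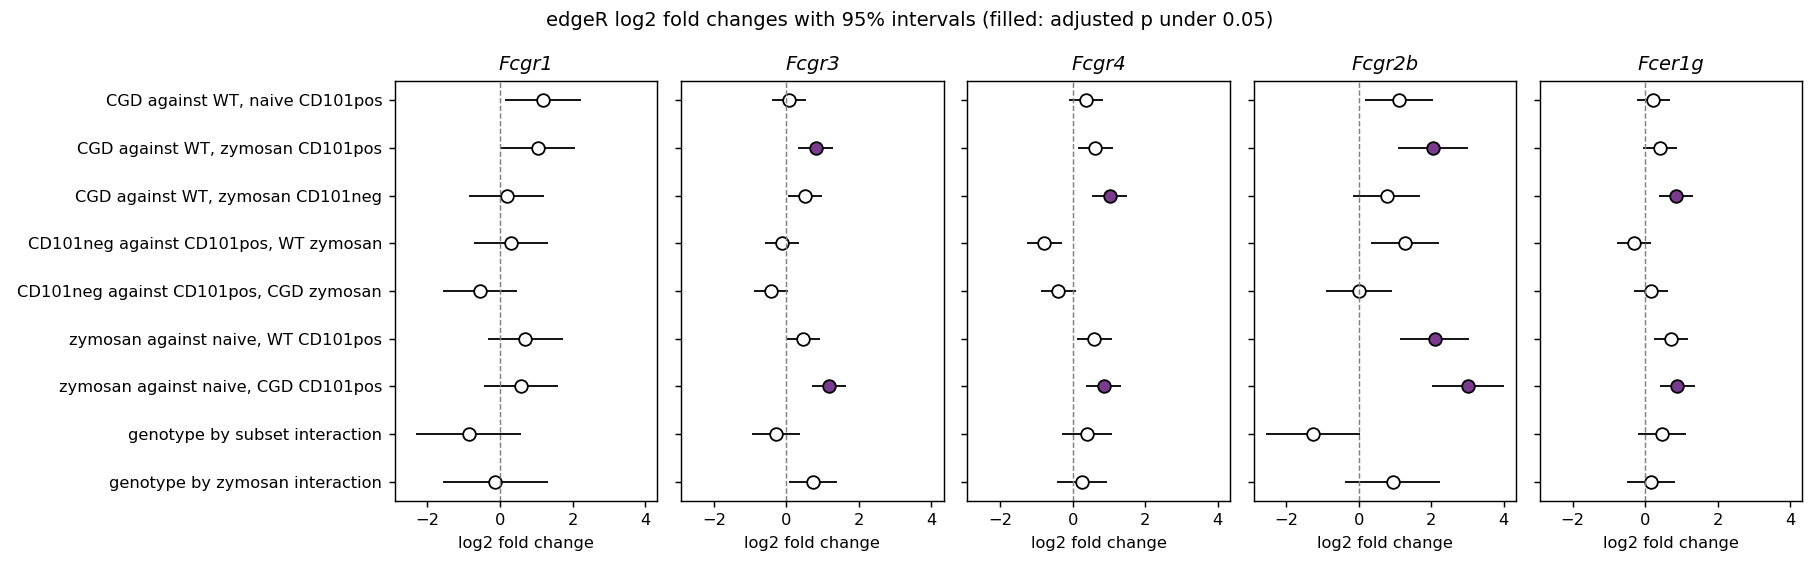
The log2 fold change of each gene in the 7 comparisons and the 2 interactions, with 95% intervals, and filled points where the adjusted p was under 0.05. Fcgr2b has the largest filled values, up to 3.02 for zymosan in CGD cells, and no interaction is filled.

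In CD101pos cells after zymosan, CGD cells held more Fcgr2b and more Fcgr3 transcript than WT cells. Fcgr2b was 4.12-fold higher, with a log2 fold change of 2.04 ± 0.45 (SE; edgeR adjusted p = 0.0127), and Fcgr3 1.75-fold higher (0.81 ± 0.23, adjusted p = 0.0433). These were 2 of the 5 genes, while 5.3% of all genes tested passed, 2.77% higher and 2.53% lower. Fcgr4 did not pass although its libraries did not overlap (0.63 ± 0.23, adjusted p = 0.135), nor did Fcgr1 (1.04 ± 0.49, adjusted p = 0.274) or Fcer1g (0.40 ± 0.22, adjusted p = 0.376, 95% interval -0.07 to 0.87). The libraries of 3 of the 5 genes did not overlap, against 21.9% of all genes. The median of the 5 was 0.81, against 0.02 for all genes.

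The direction held for both called genes when any 1 library was left out, but the calls did not. Fcgr2b missed the threshold without CGD CD101pos replicate 2 (1.94, adjusted p = 0.0541) or WT CD101pos replicate 2 (1.71, adjusted p = 0.062), and without the low-count filter (adjusted p = 0.0616). Fcgr3 missed it without CGD CD101pos replicate 1 (0.69, adjusted p = 0.138) or 2 (0.71, adjusted p = 0.187), and without WT CD101pos replicate 1 (0.75, adjusted p = 0.0936), 2 (0.89, adjusted p = 0.0793) or 3 (0.78, adjusted p = 0.153). It also missed with RLE factors (adjusted p = 0.0522), with replicate number as a block over all groups (0.0531) or with only these groups in the fit (0.124). That block joins libraries of different genotypes and treatments and is not a pairing. Fcgr4 passed without both WT libraries numbered 2 (0.77, adjusted p = 0.0337) and with library-size scaling (adjusted p = 0.0379).

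Markers of other cells moved in the same comparison. Of 12 alveolar macrophage markers 3 rose, with summed levels of 989 to 1327 CPM in WT and 1126 to 1236 CPM in CGD CD101pos libraries. Of 12 monocyte and interstitial macrophage markers 5 rose, with sums of 594 to 690.2 CPM in WT and 756 to 948 CPM in CGD libraries. The sums follow a few genes. Abcg1 alone made up most of the alveolar sum in every group, at a mean of 866 CPM in WT and 688 CPM in CGD CD101pos libraries. Apoe led the other list here, at 250 and 289 CPM. No marker of either list was at 0 in a whole group. The mitochondrial share of reads was 0.330% to 0.396% in CGD and 0.425% to 0.571% in WT CD101pos libraries, with no overlap, and its part was not tested. Macrophages and monocytes also express Fcgr2b and Fcgr3, and the part of these cells in the 2 differences was not tested. FcγRIIB is also the main Fc gamma receptor of B cells. Of 8 B cell markers 5 fell, and their sum was 47.8 to 67.7 CPM in CGD against 150.0 to 178 CPM in WT CD101pos libraries. Ighm made up most of this sum, at a mean of 138 CPM in WT and 41.4 CPM in CGD libraries. The part of B cells was not tested.

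In CD101neg cells after zymosan, CGD cells held more Fcgr4 and more of the chain Fcer1g. Fcgr4 was 2.04-fold higher (log2 fold change 1.03 ± 0.23, edgeR adjusted p = 0.00711) and Fcer1g 1.80-fold higher (0.85 ± 0.22, adjusted p = 0.0185). These were again 2 of the 5 genes, and the background over all genes was 12.9%, with 6.67% higher and 6.24% lower. The other 3 did not pass, with Fcgr2b at 0.77 ± 0.44 (adjusted p = 0.264), Fcgr3 at 0.51 ± 0.22 (adjusted p = 0.139) and Fcgr1 at 0.18 ± 0.49 (adjusted p = 0.843). The 95% interval of Fcgr2b, -0.15 to 1.69, includes a change as large as that of Fcgr4. Libraries did not overlap for 4 of the 5 genes, all but Fcgr1, against 30% of all genes. The median of the 5 was 0.77, and that of all genes -0.08.

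The Fcgr4 call held without any 1 library (at 0.59 with library-size scaling, adjusted p = 0.0144) and was lost with only the 2 groups in the fit (1.06, adjusted p = 0.0629). Fcer1g was at 0.38 with library-size scaling (adjusted p = 0.045). It missed the threshold in the fit of 2 groups (0.88, adjusted p = 0.0726), without CGD CD101neg replicate 1 (0.70, adjusted p = 0.086) or 2 (0.86, adjusted p = 0.0518), and without WT CD101neg replicate 1 (0.72, adjusted p = 0.0812) or 3 (0.82, adjusted p = 0.0636). Markers of other cells moved here too. In each of the 2 macrophage lists 8 of 12 were called lower and 0 higher. Car4 of the alveolar list had the higher mean in CGD cells, at 168 CPM against 84.9 CPM in WT CD101neg libraries. Alveolar macrophage markers summed to 909 to 1683 CPM in WT and 709 to 1089.97 CPM in CGD CD101neg libraries, and monocyte and interstitial markers to 591 to 746 and 465 to 801 CPM. Abcg1 again led the first sum (1069 CPM in WT and 617 CPM in CGD on average). The second was led by Apoe in WT (290 CPM) and by Ly6c2 in CGD libraries (324 CPM). None of the 24 was at 0 in either group. The mitochondrial share of reads was 0.316% to 0.359% in CGD and 0.492% to 0.581% in WT CD101neg libraries, and the TMM factors were 0.702 to 0.809 and 0.933 to 1.20, neither with an overlap. The part of these measures, and that of macrophages and monocytes, in the 2 differences was not tested. Of the 8 B cell markers 7 fell, from 121 to 147 CPM in sum in WT to 27.1 to 44.7 CPM in CGD libraries, where Pax5 was at 0.

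In naive CD101pos cells no member passed between genotypes by edgeR, and none by DESeq2. In edgeR 2 members had an unadjusted p under 0.05, Fcgr1 (1.17 ± 0.50, adjusted p = 0.655) and Fcgr2b (1.11 ± 0.44, adjusted p = 0.632). The background was 0.127%, or 21 of 16575 genes (0.121% higher, 0.00603% lower). Fcgr3 (0.08 ± 0.22), Fcgr4 (0.37 ± 0.23) and Fcer1g (0.23 ± 0.22) had adjusted p-values of 0.981, 0.846 and 0.926. All 5 were higher on average in CGD cells, with Fcgr3 the exception under library-size scaling (-0.06) and without CGD naive replicate 3 (-0.20). The libraries of Fcgr1 and of Fcgr4 (2 of 5) did not overlap, against 14.7% of all genes. Of the 12 alveolar macrophage markers 2 rose between these groups.

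Zymosan-exposed CD101pos cells held more Fcgr2b than naive ones in both genotypes. In CGD cells Fcgr2b was 8.10-fold higher (3.02 ± 0.47, edgeR adjusted p = 0.00033), Fcgr3 2.27-fold (1.18 ± 0.23, adjusted p = 0.00186), Fcer1g 1.85-fold (0.89 ± 0.22, adjusted p = 0.0131) and Fcgr4 1.81-fold (0.86 ± 0.23, adjusted p = 0.0189). These were 4 of 5 members, against a background of 12.8% (7.13% higher and 5.71% lower). Fcgr1 was at 0.57 ± 0.49 (adjusted p = 0.503). The same 4 genes were those whose libraries did not overlap, against 32% of all genes.

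In WT cells Fcgr2b was 4.25-fold higher after zymosan (2.09 ± 0.46, adjusted p = 0.0133), the only member called, where 3.79% of all genes were called (2.92% higher, 0.875% lower). Fcer1g was at 0.72 ± 0.22 (adjusted p = 0.0854), Fcgr4 at 0.60 ± 0.23 (adjusted p = 0.171), Fcgr3 at 0.45 ± 0.22 (adjusted p = 0.316) and Fcgr1 at 0.70 ± 0.50 (adjusted p = 0.521). Libraries of all but Fcgr1 did not overlap, against 23.7% of all genes. The difference between the WT and CGD responses, tested as an interaction, passed for no member. It was 0.93 ± 0.62 for Fcgr2b (95% interval -0.37 to 2.23, adjusted p = 0.634) and 0.73 ± 0.32 for Fcgr3 (0.06 to 1.39, adjusted p = 0.41). Fcgr3 was the 1 member with an unadjusted p under 0.05 (0.0333), DESeq2 called 0, and edgeR called 0.32% of all genes (0.163% higher, 0.157% lower).

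Several of these calls rested on single libraries. In CGD cells Fcer1g missed without CGD naive replicate 1 (adjusted p = 0.0666) or CGD zymosan CD101pos replicate 1 (0.0807), and with only these groups in the fit (0.0629). Fcgr4 missed without CGD naive replicate 1 (adjusted p = 0.0778) or 2 (0.0644), or CGD zymosan CD101pos replicate 1 (0.0901). In WT cells Fcgr2b missed without WT naive replicate 1 (adjusted p = 0.0663), 2 (0.0595) or 3 (0.0584), without WT zymosan CD101pos replicate 3 (0.0587) and without the filter (0.0589), at log2 values between 1.85 and 2.15. Fcer1g passed there with DESeq2 (adjusted p = 0.0225) and without the filter (0.0378). Of the 12 alveolar macrophage markers 7 rose with zymosan in WT and 6 in CGD cells. Their sums were 758 to 809 CPM in WT naive and 648 to 979 CPM in CGD naive libraries. After zymosan they were 989 to 1327 and 1126 to 1236 CPM in CD101pos libraries. Of the monocyte and interstitial markers 4 rose in WT cells, and 6 rose and 1 fell in CGD cells. Their summed level did not rise in WT cells, at 671 to 753 CPM in naive and 594 to 690.2 CPM in zymosan libraries. In CGD cells the sums overlapped, at 782 to 895 CPM in naive and 756 to 948 CPM in zymosan libraries. None was at 0 in a whole group, and the part of these cells was not tested. B cell marker sums were 433 to 458 CPM in WT naive and 304 to 440.1 CPM in CGD naive libraries, and 6 of 8 fell in each genotype.

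Between the sorted subsets of WT mice, Fcgr2b and Fcgr4 went opposite ways. The sample titles give CD101neg and CD101pos libraries shared numbers, but the labels do not say that these mark the same mouse. In WT cells, libraries of the same number deviated alike from their group means (correlations of 0.487, 0.425 and 0.312). The pairing used here was inferred from these same expression values. Fcgr2b was higher in CD101neg cells in each of the 3 pairs, by 2.36, 2.31 and 2.51 times. Fcgr4 was lower in each, at 0.489, 0.720 and 0.491 of the CD101pos level. Pair 2 held less Fcgr2b and more Fcgr4 than the other pairs in both subsets. Without the pairing 0 of 5 members passed by edgeR (background 0.44%, with 0.41% higher and 0.0302% lower), with Fcgr2b at 1.27 ± 0.44 (adjusted p = 0.293) and Fcgr4 at -0.79 ± 0.23 (adjusted p = 0.167). Both had an unadjusted p under 0.05, and DESeq2 called 1, Fcgr4 (adjusted p = 0.0487).

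With the replicate number as a block both passed, Fcgr2b at 1.25 ± 0.13 (edgeR adjusted p = 7.87e-06) and Fcgr4 at -0.85 ± 0.14 (adjusted p = 0.00078). Both calls depend on the inferred pairing. That fit took its spread from the zymosan libraries of both genotypes, also the CGD ones. These were 2 of 5 members, where the blocked fit called 11% of 15791 genes, 5.05% higher and 5.98% lower. Fcgr3 (-0.14 ± 0.12, adjusted p = 0.574), Fcer1g (-0.32 ± 0.13, adjusted p = 0.159) and Fcgr1 (0.36 ± 0.22, adjusted p = 0.366) did not pass. Fcer1g and Fcgr3 were lower in CD101neg cells in each of the 3 pairs, Fcer1g at 0.758, 0.877 and 0.790 and Fcgr3 at 0.882, 0.953 and 0.911 of the CD101pos level. Fcgr1 was higher in each, by 1.125, 1.92 and 1.023 times. All 5 members thus kept 1 direction over the 3 pairs. The share of all genes that do so was not drawn up, and these signs lend the 3 uncalled genes no support. Without pairing, Fcgr4 passed when WT CD101neg replicate 2 was left out (-1.16, adjusted p = 0.00684) and when both WT libraries numbered 2 were (-1.03, adjusted p = 0.0341). Without the block edgeR called 0 of the 24 macrophage markers between the WT subsets, with 1 of each list at an unadjusted p under 0.05. That fit called 0.44% of all genes and 0 of the 5 members, and results with the block were not drawn up for cell type markers. Of the 8 B cell markers 1 rose.

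**Figure D3:**
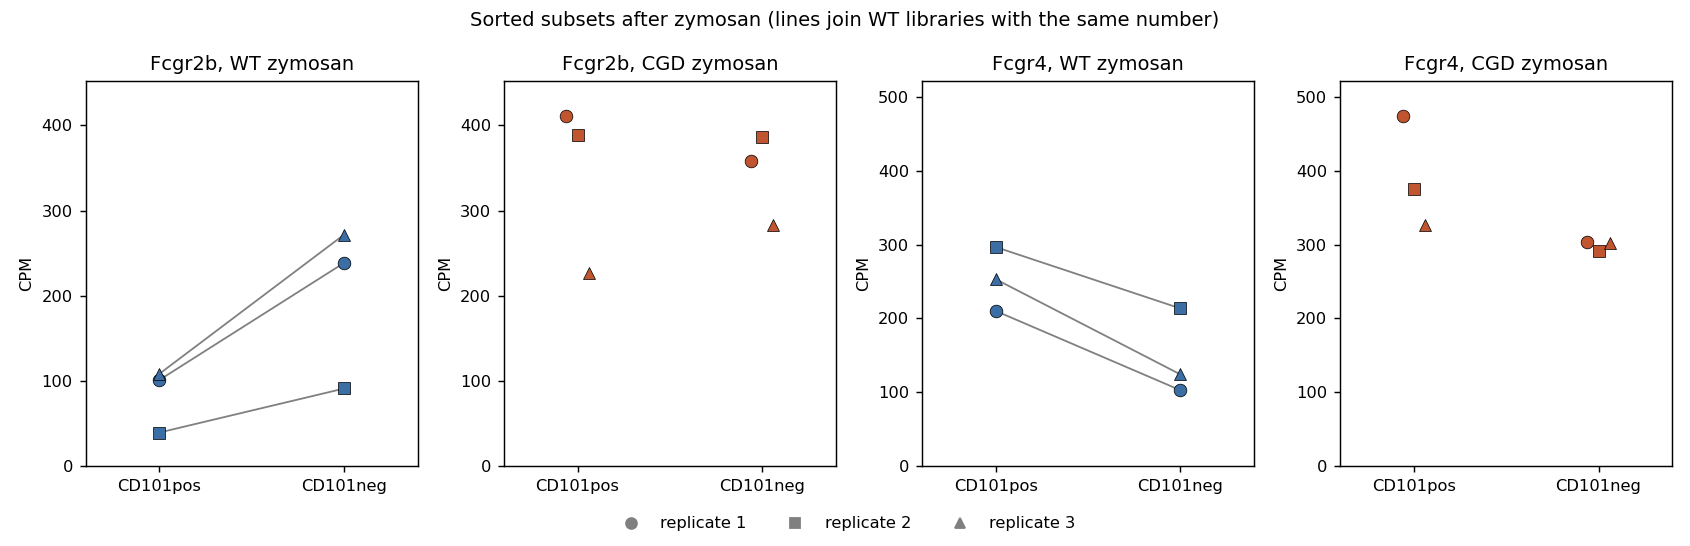
Fcgr2b and Fcgr4 in the CD101pos and CD101neg libraries of each genotype after zymosan, in CPM on axes that start at 0. Lines join WT libraries of the same number, and all 3 rise for Fcgr2b and fall for Fcgr4, while the CGD points of Fcgr2b overlap.

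In CGD mice Fcgr2b was not called between subsets, at 0.00 ± 0.44 (adjusted p = 0.999), although the 95% interval from -0.91 to 0.92 is wide. Fcgr4 was at -0.39 ± 0.23 (adjusted p = 0.329), with all CD101neg libraries below all CD101pos ones, as for 28.9% of all genes. Fcgr3 was at -0.42 ± 0.22 (adjusted p = 0.283), Fcgr1 at -0.56 ± 0.49 (adjusted p = 0.538) and Fcer1g at 0.15 ± 0.22 (adjusted p = 0.734). By edgeR without the block 0 of 5 members passed, also at an unadjusted p under 0.05, and 0 by DESeq2. In that fit edgeR called 7.35% of all genes (3.27% higher, 4.08% lower). The difference between the genotypes in this subset contrast passed for none of the 5 (background 0.851%, with 0.181% higher and 0.67% lower), with 0 at an unadjusted p under 0.05 and 0 by DESeq2. It was -1.27 ± 0.62 for Fcgr2b (95% interval -2.57 to 0.03, adjusted p = 0.362) and 0.40 ± 0.32 for Fcgr4 (adjusted p = 0.599). With the replicate block 2 of the 5 passed, Fcgr2b at -1.24 (edgeR adjusted p = 0.000376) and Fcgr1 at -1.10 (adjusted p = 0.0252). The blocked fit called 14.1% of all genes for this difference, 5.96% higher and 8.16% lower. The rule used for pairing asked for a correlation above a set level in every pair, which the WT libraries met and the CGD ones did not. The CGD correlations were 0.236, 0.025 and 0.26, each above those of CGD libraries with unlike numbers (-0.256 to 0.012). With the block 3 of the 5 passed between the CGD subsets, Fcgr1, Fcgr3 and Fcgr4, all lower in CD101neg cells. That fit called 3924 of 15791 genes. WT calls with the block and CGD calls without it come from different fits and do not compare the genotypes. In CGD cells 8 of 12 markers of each macrophage list fell from CD101pos to CD101neg cells.

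TMM factors set these directions relative to the bulk of genes, and scaling to library size alone moved the split of called genes. In CGD against WT CD101neg cells 1105 genes were higher and 1034 lower with TMM, and 413 and 3572 with library-size scaling. In CD101pos cells the splits were 459 and 419 against 308 and 490. For zymosan they were 1182 and 946 against 727 and 2021 in CGD cells, and 484 and 145 against 264 and 617 in WT cells. Between the CGD subsets 542 genes were higher and 676 lower in CD101neg cells with TMM, and 82 and 1163 without. For the genotype by subset interaction the splits were 30 and 111 against 1 and 163, and for the genotype by zymosan interaction 27 and 26 against 9 and 4. Every member called higher with TMM in a comparison of genotypes or of zymosan was also called higher with library size alone. Of the other values, Fcgr1 in CGD against WT CD101neg cells changed sign (-0.29), as did Fcgr3 between naive genotypes (-0.06), and Fcgr2b (-0.29) and Fcer1g (-0.13) between CGD subsets. Between the CGD subsets Fcgr3 (-0.72, adjusted p = 0.0118) and Fcgr4 (-0.69, adjusted p = 0.0166) passed with library-size scaling.

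Because reads of 2 genes in 1 library share its scaling, their ratio needs no scaling factor. The read ratio of activating Fcgr4 to inhibitory Fcgr2b was 10.6, 7.65 and 7.84 in WT naive libraries and 9.5, 2.84 and 7.28 in CGD naive libraries. After zymosan it was 2.08, 7.53 and 2.34 in WT CD101pos and 1.15, 0.966 and 1.44 in CGD CD101pos libraries. In CD101neg cells it was 0.431, 2.34 and 0.457 in WT and 0.849, 0.753 and 1.07 in CGD libraries. The ratio was thus lower in zymosan than in naive CD101pos libraries of both genotypes, with no overlap. WT replicate 2 was the highest of its group in both subsets. These are ratios of reads, and transcript length enters them equally in every library.

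The mean log2 ratio of CGD minus WT CD101pos cells after zymosan was -1.50 (0.23 ± 0.29 against 1.73 ± 1.03, SD, n = 3; exact permutation test, two-sided, p = 0.1, adjusted over 7 comparisons p = 0.233). Zymosan minus naive was -1.37 in WT and -2.31 in CGD cells, each also at an exact p = 0.1, the smallest that 3 against 3 allows. The CD101neg minus CD101pos difference was -2.10 in WT (exact p = 0.3, a test that leaves out the pairing) and -0.41 in CGD cells (exact p = 0.2). In WT the ratio was lower in CD101neg cells in each of the 3 pairs. That follows from the opposite directions of the 2 genes in each pair, given above, and is no further support. Between genotypes the difference was 0.19 in CD101neg (exact p = 1) and -0.56 in naive cells (exact p = 0.4). With Fcgr3 in place of Fcgr4 the ratio lay between 33.7 and 40.4 in WT naive and between 4.65 and 5.58 in CGD zymosan CD101pos libraries, and 5 of the 7 comparisons had no overlap (exact p = 0.1, adjusted p = 0.14).

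**Figure D4:**
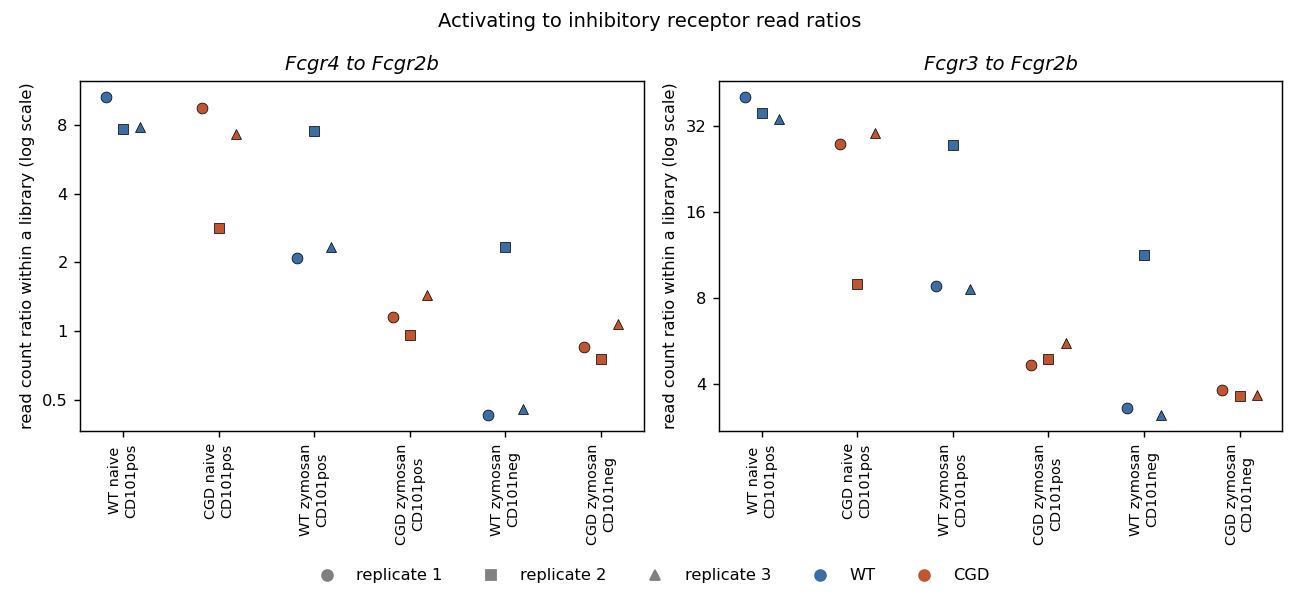
Read count ratios of Fcgr4 to Fcgr2b and of Fcgr3 to Fcgr2b in every library, on log axes. For Fcgr4 the naive libraries lie between 7.28 and 10.6 except CGD naive replicate 2 (2.84), WT zymosan CD101pos replicate 2 lies within that range (7.53), and CGD zymosan libraries lie between 0.753 and 1.44 for Fcgr4 in both subsets.

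Around the receptors, 4 lists of genes were followed, holding other Fc receptors, other receptors that signal through the Fcer1g chain, mediators of ITAM signalling, and inhibitory receptors with their phosphatases. Tests were available for 10 of 14, 5 of 9, 35 of 35 and 22 of 23 listed genes. The shares of all genes called in each comparison are those given above with the members. In CD101neg cells after zymosan, CGD cells had 6 ITAM mediators higher and 1 lower (1 higher and 7 lower with library-size scaling, where the median of all genes is -0.57), at a list median of 0.24 against -0.08 for all genes. The 4 with the lowest p were Lcp2, the adaptor SLP-76 (1158 against 569 CPM, 1.02 ± 0.16, adjusted p = 0.000365), the exchange factor Vav3 (1.00 ± 0.17, adjusted p = 0.000761), Was, the actin regulator WASP (0.84 ± 0.22, adjusted p = 0.0179), and Malt1 of the CARD9 complex (1.39 ± 0.37, adjusted p = 0.0185). Syk itself, the kinase that docks on the ITAM, was at 0.39 ± 0.24 (adjusted p = 0.29) and is named here after its value was seen.

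On the inhibitory side 5 genes were higher and 1 lower in CGD CD101neg cells (3 and 3 with library-size scaling), with a median of 0.28. Those with the lowest p were the docking protein Dok2 (87.3 against 21.1 CPM, 2.05 ± 0.39, adjusted p = 0.00219), the phosphatase Ptpn22 (1.72 ± 0.42, adjusted p = 0.0131), the sialic acid receptor Siglece (1.12 ± 0.28, adjusted p = 0.0132) and Ptpn6, the phosphatase SHP-1 (0.64 ± 0.18, adjusted p = 0.0242). Of the receptors that share the chain, Clec4e, the fungal glycolipid receptor Mincle, was higher (3336 against 1870.2 CPM, 0.83 ± 0.20, adjusted p = 0.00934), as was Clec4d (0.74 ± 0.23, adjusted p = 0.0407), and neither passed with library-size scaling. With 1 library left out, the ITAM count of 7 was lowest at 3 without CGD CD101neg replicate 2 and 4 without CGD replicate 3. The inhibitory count of 6 was 2 without CGD replicate 2 or WT replicate 1, and 3 without WT replicate 2 or 3. The chain-sharing count of 2 was 1 without any of CGD replicates 1 to 3 or WT replicates 1 and 2. Without both WT libraries numbered 2 the counts were 9, 3 and 1.

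Other Fc receptors went mostly the other way in these cells, with 4 lower and 1 higher (5 and 0 with library-size scaling, median -0.98 with TMM). Fcgrt, the neonatal Fc receptor that recycles IgG, was at 8.96 against 26.8 CPM (-1.58 ± 0.24, adjusted p = 0.000393), and Fcrls, an Fc receptor-like scavenger receptor, at 0.477 against 4.16 CPM (-3.12 ± 0.48, adjusted p = 0.000399). Fcmr, the IgM receptor (-2.35 ± 0.43, adjusted p = 0.00172), and Fcer2a, the low-affinity IgE receptor CD23 (-2.28 ± 0.62, adjusted p = 0.0216), are known from B cells, whose markers were lower in the same libraries. The part of B cells in these 2 differences was not tested. In CD101pos cells Fcgrt was instead higher in CGD (49.8 against 25.1 CPM, 0.99 ± 0.24, adjusted p = 0.0187) and Fcmr lower (-1.77 ± 0.44, adjusted p = 0.0232). The subset contrast of Fcgrt and of Fcrls differed between genotypes by the interaction (-2.57 ± 0.34 and -4.31 ± 0.64). Both calls in CD101pos cells were lost without CGD CD101pos replicate 2 or 3, or WT CD101pos replicate 2 or 3, or both WT libraries numbered 2, and 1 was lost without CGD replicate 1. The CD101neg count of 5 was 3 without CGD CD101neg replicate 3. Fcrls and Fcgrt are also genes of macrophages, whose marker sums are given with the members, and their part was not tested.

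In CD101pos cells after zymosan, 2 ITAM mediators were higher in CGD cells (0 with library-size scaling), the kinase Tec (1.03 ± 0.28, adjusted p = 0.0389) and Lcp2 (0.56 ± 0.15, adjusted p = 0.0401). As many were lower (also 2 with that scaling), the PI3 kinase subunit Pik3cd (89.7 against 203 CPM, -1.18 ± 0.27, adjusted p = 0.0162) and the phospholipase Plcg2 (-0.73 ± 0.19, adjusted p = 0.0334), with a list median of -0.19. Of the inhibitory list Csk, the kinase that restrains Src kinases, fell (-0.93 ± 0.18, adjusted p = 0.00555), as did the receptor Cd300a (-0.81 ± 0.16, adjusted p = 0.0059), with a median of -0.22. No receptor that shares the chain passed by edgeR. Of these 2 had an unadjusted p under 0.05, DESeq2 called 1, and the 2 with the lowest p were Clec4n, the receptor Dectin-2 (776 against 267 CPM, 1.54 ± 0.54, adjusted p = 0.117), and Clec4d (0.54 ± 0.23, adjusted p = 0.207). The ITAM count of 4 was 0 without CGD CD101pos replicate 2 or WT replicate 2, 1 without CGD replicate 1 or WT replicate 3, 2 without both WT libraries numbered 2, and 0 with only the compared groups in the fit. The inhibitory count of 2 was 6 without WT CD101pos replicate 1.

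With zymosan, Clec4e rose in both genotypes (1.09 ± 0.20 in WT, adjusted p = 0.00315, and 1.01 ± 0.20 in CGD cells, adjusted p = 0.00211), and Clec4n was called in CGD cells (149 to 776 CPM, 2.38 ± 0.55, adjusted p = 0.00809). With library-size scaling the ITAM calls were 0 higher and 1 lower in WT cells (2 and 0 with TMM) and 2 higher and 6 lower in CGD cells (2 and 2 with TMM). On the TMM scale Lcp2 rose in both (0.62 ± 0.15, adjusted p = 0.0278, and 1.20 ± 0.16, adjusted p = 5.37e-05). Vav3 was called in WT cells (0.61 ± 0.17, adjusted p = 0.0446), and in CGD cells Tec was higher (1.94 ± 0.29, adjusted p = 0.000189) and Plcg2 (-0.88 ± 0.19, adjusted p = 0.00483) and Fyn (-1.35 ± 0.32, adjusted p = 0.00761) lower. On the inhibitory side Cd200r1, the receptor of CD200 (2.37 ± 0.21 in WT, 1.41 ± 0.20 in CGD cells), and Dok2 (2.66 ± 0.41 and 2.69 ± 0.40) rose in both. In all, 2 of 22 inhibitory genes rose in WT cells, and 5 rose and 2 fell in CGD cells (4 and 6 with library-size scaling), where Ceacam1 was at -0.97 ± 0.20 and Cd300a at -0.69 ± 0.16. Of all genes 3.79% were called in WT and 12.8% in CGD cells, and the 2 and 4 of 35 ITAM mediators called are near these shares. Of the other Fc receptors Fcmr fell (-2.79 ± 0.41 and -3.98 ± 0.45), and Fcrlb rose (3.43 ± 0.89 and 4.62 ± 0.80) from at most 0.189 CPM on average. Fcer2a fell too (-2.69 ± 0.58 in WT, and -2.04 ± 0.57 in CGD cells, the last named to complete the count), and in CGD cells Fcrls (2.16 ± 0.43) and Fcgrt (0.87 ± 0.24) rose, for counts of 3 in WT and 5 in CGD cells.

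The ITAM count of 2 in WT cells was 0 without any 1 WT naive replicate or WT zymosan CD101pos replicate 3, 1 without WT zymosan CD101pos replicate 1, and 4 without both WT libraries numbered 2, where the inhibitory count was 4 and the chain-sharing count 2. The other Fc receptor count in WT cells was 1 without WT naive replicate 3 or WT zymosan CD101pos replicate 3. In CGD cells it was 3 without CGD naive replicate 1 or 2, or CGD zymosan CD101pos replicate 2 or 3. Between genotypes of naive cells no gene of the 4 lists passed by edgeR. At an unadjusted p under 0.05 there were 4 ITAM mediators and 3 inhibitory genes, and DESeq2 called 1 inhibitory gene.

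Between the WT subsets, with the replicate block, 4 ITAM mediators were higher and 8 lower in CD101neg cells, and 8 of 22 inhibitory genes were lower and 0 higher. Among them were the adaptors Lat2 (1.41 ± 0.17, adjusted p = 3.29e-05) and Lat (1.23 ± 0.28, adjusted p = 0.00903), Malt1 (0.70 ± 0.15, adjusted p = 0.00434) and the GTPase Rac2, a part of the oxidase complex (-0.66 ± 0.14, adjusted p = 0.00532). The inhibitory genes with the lowest p were Ptpn22 (-1.31 ± 0.15, adjusted p = 2.2e-05), Lair1 (-0.84 ± 0.16, adjusted p = 0.00178), Pilra (-0.72 ± 0.14, adjusted p = 0.00253) and Siglece (-0.59 ± 0.14, adjusted p = 0.0115). The list medians were -0.19 and -0.34, against 0.01 for all genes in that fit. Without the block only Lat2 passed (1.43 ± 0.27, adjusted p = 0.0236). The ITAM count of 1 was then 0 without WT CD101neg replicate 1 or 3 or any 1 WT CD101pos library, and 3 without WT CD101neg replicate 2.

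Between the CGD subsets, in the fit without the block, the calls of both lists were all higher in CD101neg cells. Of the ITAM mediators 5 were higher and 0 lower (median 0.27), led by Vav3 (0.72 ± 0.17, adjusted p = 0.0147), the kinase Prkcd (0.88 ± 0.21, adjusted p = 0.0169), the PI3 kinase subunit Pik3cb (1.14 ± 0.32, adjusted p = 0.038) and the adaptor Nck1 (0.55 ± 0.16, adjusted p = 0.0391). Of the inhibitory genes 3 were higher and 0 lower (median 0.25), Ptpn11, the phosphatase SHP-2 (1.02 ± 0.19, adjusted p = 0.00452), Ceacam1 (1.00 ± 0.20, adjusted p = 0.00663) and Dok2 (1.34 ± 0.38, adjusted p = 0.0408). With library-size scaling 0 genes of either list passed. The ITAM count was 0 without CGD CD101neg replicate 3, and 1 without CGD CD101neg replicate 2 or any 1 CGD CD101pos library. Of the other Fc receptors Fcgrt (-2.48 ± 0.25, adjusted p = 6.29e-05) and Fcrls (-4.47 ± 0.50, adjusted p = 0.000128) fell, a count of 2 that was 4 without CGD CD101neg replicate 1. No receptor that shares the chain passed by edgeR, with 3 at an unadjusted p under 0.05 and 2 called by DESeq2.

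**Figure D5:**
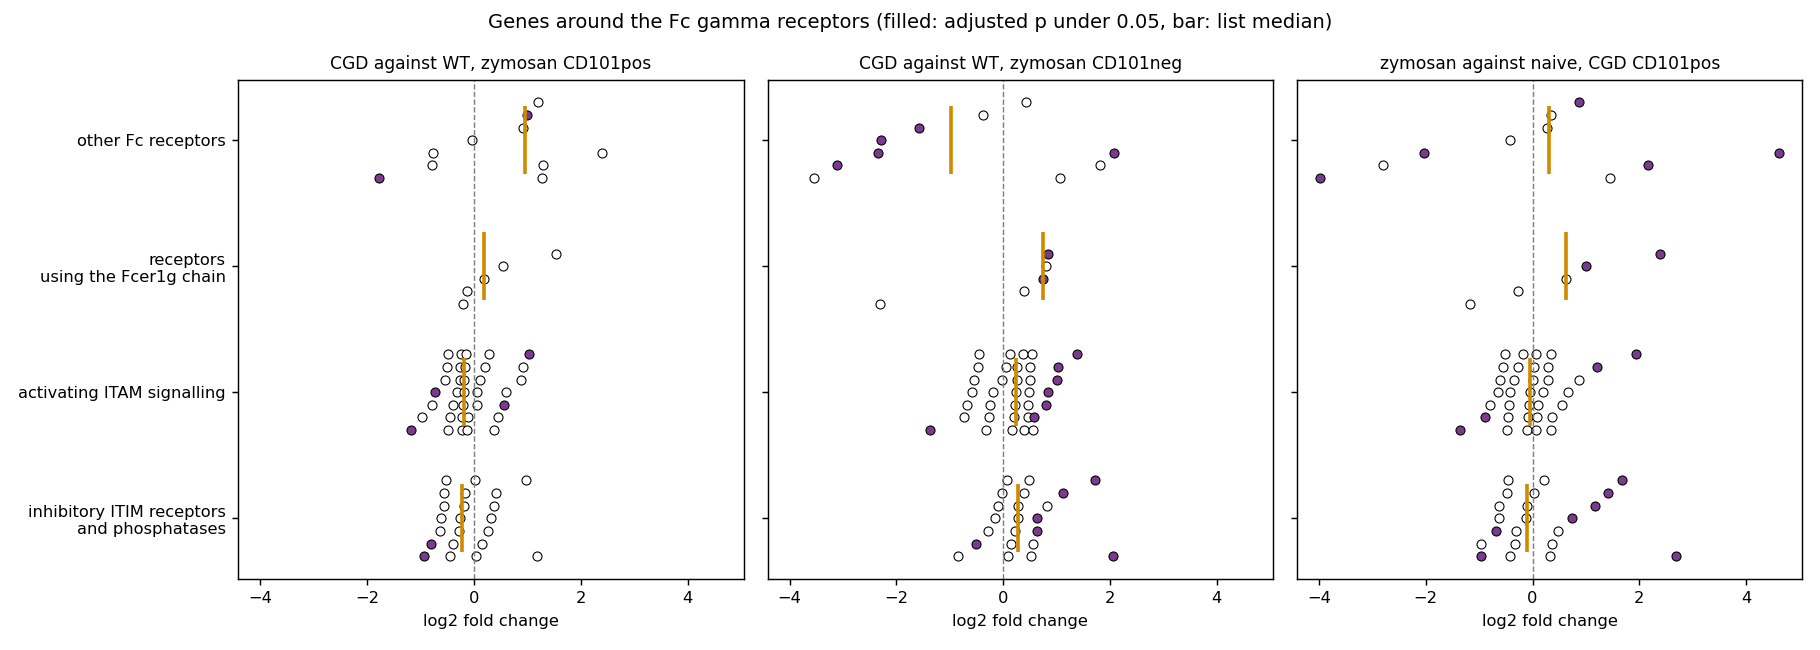
The log2 fold changes of the tested genes of the 4 lists in 3 comparisons, 1 point a gene, filled where the adjusted p was under 0.05, spread vertically only to separate points, with an orange bar at the list median. In CGD against WT CD101neg cells the filled points of the ITAM and inhibitory lists lie mostly above 0 (6 of 7 and 5 of 6), and those of other Fc receptors mostly below 0 (4 of 5).

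Over the 18 libraries the 5 genes did not share 1 pattern. Pearson's r of log2 CPM was highest for Fcer1g with Fcgr3 (0.889) and with Fcgr4 (0.809), and 0.791 for Fcgr3 with Fcgr4. For Fcgr2b it was 0.746 with Fcer1g, 0.737 with Fcgr3 and 0.406 with Fcgr4. Reads that match both Fcgr2b and Fcgr3 could enter the value of 0.737, which was not tested. Fcgr1 correlated with none of the others above 0.487. The libraries share treatment groups, and these values describe them without a test. Among 5152 genes with a mean of at least 10 CPM, the patterns most like Fcgr2b were those of Cish (0.981), a cytokine-induced inhibitor of STAT5 signalling, Nek6 (0.974) and the kinase Jak2 (0.970). Those most like Fcgr3 were Adora3 (0.931), Crispld2 (0.924) and Dpep2 (0.922), and those most like Fcgr4 were Hdc (0.911), B4galt3 (0.910) and Hcls1 (0.902). The nearest to Fcer1g were Chmp2a (0.973), Arf1 (0.973) and Sdhaf2 (0.963), and to Fcgr1 Lgals3bp (0.818), Tmem106a (0.782) and Ass1 (0.778).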

How the data were processed

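RNA sequencing libraries of 18 samples in 6 groups of 3 were analysed from the deposited table. Its values are raw read counts per gene, made by the authors. The submitters' processing notes name featureCounts 1.4.6-p5, STAR 2.5.1a and Subread, and per the labels' protocols a SMARTer kit was used. Build, annotation and strand rule: not given in the sources used here. Coordinates and exon lengths come from GENCODE M21 on GRCm38, which held 99.44% of the gene IDs. Of 40757 lines, 276 repeated a gene ID and were used once. All sample columns were used.

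The quasi-likelihood test (robust) of edgeR 4.0.16 in R 4.3.3 was fitted once to the 18 libraries together, using TMM factors, filterByExpr by group, 12 residual degrees of freedom and Benjamini and Hochberg adjustment over 16575 genes, with a threshold of 0.05. The common biological coefficient of variation was 33%. SE is the log2 fold change divided by the square root of F. Ratios were compared by exact permutation. Pairing by title number was checked by the correlation of deviations from group means. It was 0.487, 0.425 and 0.312 in WT and 0.236, 0.025 and 0.26 in CGD subsets. The block is therefore given with the WT subset results, and beside the fit without it for the CGD subsets and the genotype by subset interaction. Named genes were all 5 members and, per list and comparison, up to 4 called genes with the lowest p (2 where none passed), and the 3 most correlated genes per member. The members and lists were chosen with earlier results of these data known. Alternatives were RLE factors, library size only, no low-count filter, DESeq2 1.42.0, the compared groups alone, a replicate block and each library left out. Leaving out both WT zymosan libraries numbered 2 was added later. The block was genotype with number over the zymosan libraries for subset comparisons, and number alone over all 18 libraries for the others. The method was tested on simulated data.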

Additional observations from a re-analysis of the deposited data

How the results depend on the processing

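How many of all genes passed moved by over 1.5 times under several settings, while the direction of each called member held in all of them. With DESeq2 the counts were 2065 between CGD subsets (1218 with edgeR), 317 between WT subsets (73), 108 between naive genotypes (21), 1404 between genotypes in zymosan CD101pos cells (878), 563 for the genotype by subset interaction (141), 266 for the genotype by zymosan interaction (53) and 1203 for zymosan in WT cells (629). With library size only they were 9 between naive genotypes, 3985 in zymosan CD101neg cells (2139) and 13 for the zymosan interaction. Without the low-count filter they were 140 between WT subsets, 327 for the subset interaction and 119 for the zymosan interaction. With only the compared groups in the fit, edgeR called 0 genes between WT subsets (1015 at an unadjusted p under 0.05), 6 between naive genotypes, 1062 in zymosan CD101neg cells, 572 in zymosan CD101pos cells and 62 for the subset interaction. Leaving out each library in turn gave 321 to 1185 between CGD subsets, 3 to 400 between WT subsets, 2 to 64 between naive genotypes, 1164 to 1938 in CD101neg and 320 to 1125 in CD101pos cells between genotypes, 43 to 497 for the subset interaction, 5 to 54 for the zymosan interaction, and 263 to 560 in WT and 1170 to 1891 in CGD cells for zymosan.

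The replicate block, by the pairing of subset libraries, gave 1741 genes between WT subsets, 3924 between CGD subsets and 2229 for the genotype by subset interaction. In CGD cells the numbers did not pair the libraries by the rule used (correlations of 0.236, 0.025 and 0.26). With the block 3 members passed between CGD subsets, Fcgr1 (-0.74, adjusted p = 0.02), Fcgr3 (-0.43, adjusted p = 0.0144) and Fcgr4 (-0.40, adjusted p = 0.0476). For the interaction 2 passed, Fcgr1 (-1.10, adjusted p = 0.0252) and Fcgr2b (-1.24, adjusted p = 0.000376). Between WT subsets 2 passed, as given with the results. For comparisons of genotypes or of zymosan the block was the number alone, over all groups, and is not a pairing. With it 1 member passed between genotypes in zymosan CD101pos cells. Neither block changed another member's call.

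Of the 5 members, 1 in place of 2 passed between genotypes in zymosan CD101pos cells without the filter, with only the compared groups or with RLE factors, and 0 to 2 without 1 library. In CD101neg cells 0 passed with only the compared groups and 1 to 2 without 1 library. Between WT subsets 1 passed with DESeq2 and without both WT libraries numbered 2, and 0 to 1 without 1 library. With zymosan 2 passed in WT cells with DESeq2 and 0 to 1 without 1 library, and 2 to 4 in CGD cells. Between CGD subsets 2 passed with library size only. Changes of sign, none of a called gene, were those of Fcer1g between CGD subsets (-0.13 with library size only, -0.0495 to 0.36 without 1 library) and in the zymosan interaction (-0.14 to 0.37 without 1 library), and of Fcgr1 between genotypes in CD101neg cells (-0.29 with library size only, -0.61 to 0.50 without 1 library) and in the zymosan interaction (-0.54 to 0.30 without 1 library). Fcgr2b between CGD subsets was at -0.29 with library size only, -0.0511 without the filter, -0.0105 with only these groups, and -0.23 to 0.12 without 1 library. Fcgr3 between naive genotypes was at -0.0566 with library size only and -0.20 to 0.23 without 1 library. The log2 ratio of Fcgr4 to Fcgr2b between genotypes in CD101neg cells (0.19) was -0.40 with Fcgr3 in place of Fcgr4, and -0.23 to 0.99 without 1 library. The cause of these changes was not tested, beyond the fewer samples and genes that some settings use.

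The size of change that passes depends on each gene's own spread over 3 libraries a group, and a member that missed the threshold is not shown to be equal between groups. Fcgr1, at 94 to 1042 reads a library, had the fewest reads and the widest intervals of the 5.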
